A study of Homo sapiens with 33 samples.

Results

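This section describes the genes of the human potassium channel families, with their auxiliary subunits, and of the voltage-gated sodium channels, in leukaemia cell lines treated with glucocorticoids or with a Wnt pathway agonist. Members were every gene whose symbol begins with KCN followed by a family letter and a number, or with SCN followed by a number and the letter A or B. This gave 108 of the 62446 genes counted. KCNJ2, SCN4A and KCNK3 had prompted the choice of the family through their response to treatment, so their values are given as a description, without a test, in every comparison.

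The series holds 33 RNA-seq libraries in 11 groups of 3, from Nalm6, an acute lymphoblastic leukaemia line of the B lineage, from a TLE1 knockout made in Nalm6, and from CEM, an acute lymphoblastic leukaemia line of the T lineage. TLE1 encodes a co-repressor that acts with several transcription factors, among them those at the end of the Wnt pathway. Nalm6 groups were untreated, treated with the Wnt agonist CHIR-99021 at 0.5 µM, treated with the glucocorticoid prednisolone at 5 µM, and, as a separately titled pair, untreated or treated with the glucocorticoid dexamethasone at 100 nM. The TLE1 knockout was untreated, given prednisolone at 5 µM, or given dexamethasone at 100 nM. CEM was untreated, given CHIR-99021 at 2 µM, or given prednisolone at 10 µM. All treatments lasted 24 h. Nalm6 and knockout cells grew in RPMI-1640 with 10% charcoal-stripped serum, which is depleted of steroids, and the medium of CEM is not given in the sources used here. The labels do not say whether the knockout is 1 clone or a pool. The titles were followed for the groups, because a note in the labels pairs lines and drugs in another way. The series text speaks of 3 independent experiments for the CHIR-99021 treatment of Nalm6 and the prednisolone treatment of the knockout; where nothing says that libraries came from separate cultures, p-values measure the spread between these libraries.

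Potassium channels let potassium leave the cell and hold its membrane voltage negative. In lymphocytes that voltage drives calcium entry through store-operated channels after receptor stimulation, and KCNA3 and KCNN4 are the textbook potassium channels of this setting. Voltage-gated sodium channels carry the rising phase of the action potential in nerve and muscle; their transcripts also occur in cells that do not fire action potentials.

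Libraries held between 25292579 and 61930057 reads assigned to genes. A library with no read of a gene allowed a level of up to 0.0484 to 0.119 CPM (counts scaled to a library total of 1000000), which is 3 counts of its total and covers counting error only. Markers of the B lineage were all at 1 CPM or more in Nalm6 and the knockout (8 of 8), and the 9 T-lineage markers were all at that level in CEM. In CEM, 5 of the 8 B-lineage markers also reached 1 CPM, at a summed level of 171 to 245 CPM against 2626 to 3645 CPM in Nalm6. Of the T-lineage markers, 3 of 9 reached 1 CPM in Nalm6 and in the knockout, with summed levels of 40.4 to 48.8 and 36.0 to 67.4 CPM. CD3D, CD3E, CD3G, CD2, CD5 and CD7 were at 0 in all knockout libraries. In Nalm6 these genes were not at 0 throughout, with highest levels in any library from 0.0440 CPM for CD7 to 0.220 CPM for CD3G. The source of these reads was not tested. TLE1 transcript was still present in the untreated knockout, with levels of 25.4, 24.0 and 24.0 CPM where untreated Nalm6 had 30.2, 34.0 and 31.8 CPM. It was at 54.5, 69.0 and 64.1 CPM in the knockout with prednisolone and at 57.5, 55.3 and 59.0 CPM with dexamethasone, above untreated Nalm6, where Nalm6 had 110.0, 113 and 116 CPM with prednisolone and 134, 131 and 129 CPM with dexamethasone. The transcript level therefore does not check the knockout label, and the groups are called knockout as labelled.

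The upstream sequences of 3 genes with wide responses in Nalm6, chosen after their values were seen, are shown here, as the 250 bases before the start of the gene in RefSeq (GRCh38.p14), with every CG dinucleotide in capitals to show how rich in CG these starts are. KCNK3 lies on the plus strand at chr2:26692472-26692721, KCNT1 on the plus strand at chr9:135701935-135702184, and KCNJ2 on the plus strand at chr17:70169282-70169531.
KCNK3: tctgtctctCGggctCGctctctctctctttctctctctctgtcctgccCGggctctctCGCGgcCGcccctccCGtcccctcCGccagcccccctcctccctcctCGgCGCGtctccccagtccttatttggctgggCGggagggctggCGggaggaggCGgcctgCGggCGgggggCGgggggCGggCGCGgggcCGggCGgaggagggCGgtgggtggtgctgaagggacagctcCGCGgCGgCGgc
KCNT1: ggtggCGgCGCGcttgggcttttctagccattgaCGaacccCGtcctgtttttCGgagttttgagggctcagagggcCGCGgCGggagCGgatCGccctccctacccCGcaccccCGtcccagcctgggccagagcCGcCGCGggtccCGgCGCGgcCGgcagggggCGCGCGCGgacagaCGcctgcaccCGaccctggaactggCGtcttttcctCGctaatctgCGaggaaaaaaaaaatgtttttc
KCNJ2: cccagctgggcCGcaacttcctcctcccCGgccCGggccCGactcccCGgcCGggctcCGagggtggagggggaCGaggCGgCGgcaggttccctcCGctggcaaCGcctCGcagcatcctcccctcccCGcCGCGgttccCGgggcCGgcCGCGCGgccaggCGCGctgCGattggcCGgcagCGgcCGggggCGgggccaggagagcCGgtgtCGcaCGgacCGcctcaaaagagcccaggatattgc
The KCNK3, KCNT1 and KCNJ2 windows held 27, 29 and 32 CG dinucleotides, against a median of 11 over 35116 windows of the same length. None of the 3 held the glucocorticoid response element half-site AGAACA on either strand (TGTTCT when read on the other), which 12.4% of all windows held, and none held TATAAA on either strand (TTTATA when read on the other), which 10.7% held. The full element, AGAACA and TGTTCT with any 3 bases between them, occurred in 1 of the windows. These letter counts describe the windows only; 79 of the 108 members, and 30 of those at 1 CPM or more, had a window in the table.

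At the level chosen by the rule, 42 of the 108 members had a mean of 1 CPM or more in any of the 11 groups. This is 38.9% of the members, beside 25.7% of all counted genes and 27.2% of those with a symbol. Another 17 members lay between 0.1 and 1 CPM, 49 stayed below 0.1 CPM in every group, and 9 had no read in any library, among them SCN10A, a sodium channel of pain-sensing neurons, and KCND2, a transient potassium channel of neurons. Just inside the threshold were KCNS2, at 1.11 CPM in prednisolone-treated Nalm6, and KCNG2, at 1.02 CPM in the prednisolone-treated knockout. Just outside it were KCNJ10, at 0.770 CPM in the dexamethasone-treated knockout, and KCNA2, at 0.715 CPM in prednisolone-treated CEM.

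The expressed set differed between the lines. Of the 42 genes, 12 reached 1 CPM in both CEM and the Nalm6 lines, 15 in the Nalm6 lines alone and 15 in CEM alone. By class, 12 of 40 voltage-gated potassium pore genes, 4 of 15 inward rectifiers, 6 of 15 two-pore background channels, 3 of 8 ion-activated channels, 8 of 16 auxiliary subunits, 8 of 10 sodium channel pore genes and 1 of 4 sodium channel beta subunits reached the threshold. All 8 sodium channel pore genes were line-restricted by this measure, 3 in the Nalm6 lines and 5 in CEM, whereas 6 of the 8 auxiliary subunits were shared. The number of members at 1 CPM or more was 19 to 24 in the groups of Nalm6 and the knockout and 26 to 27 in those of CEM.

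**Figure D1:**
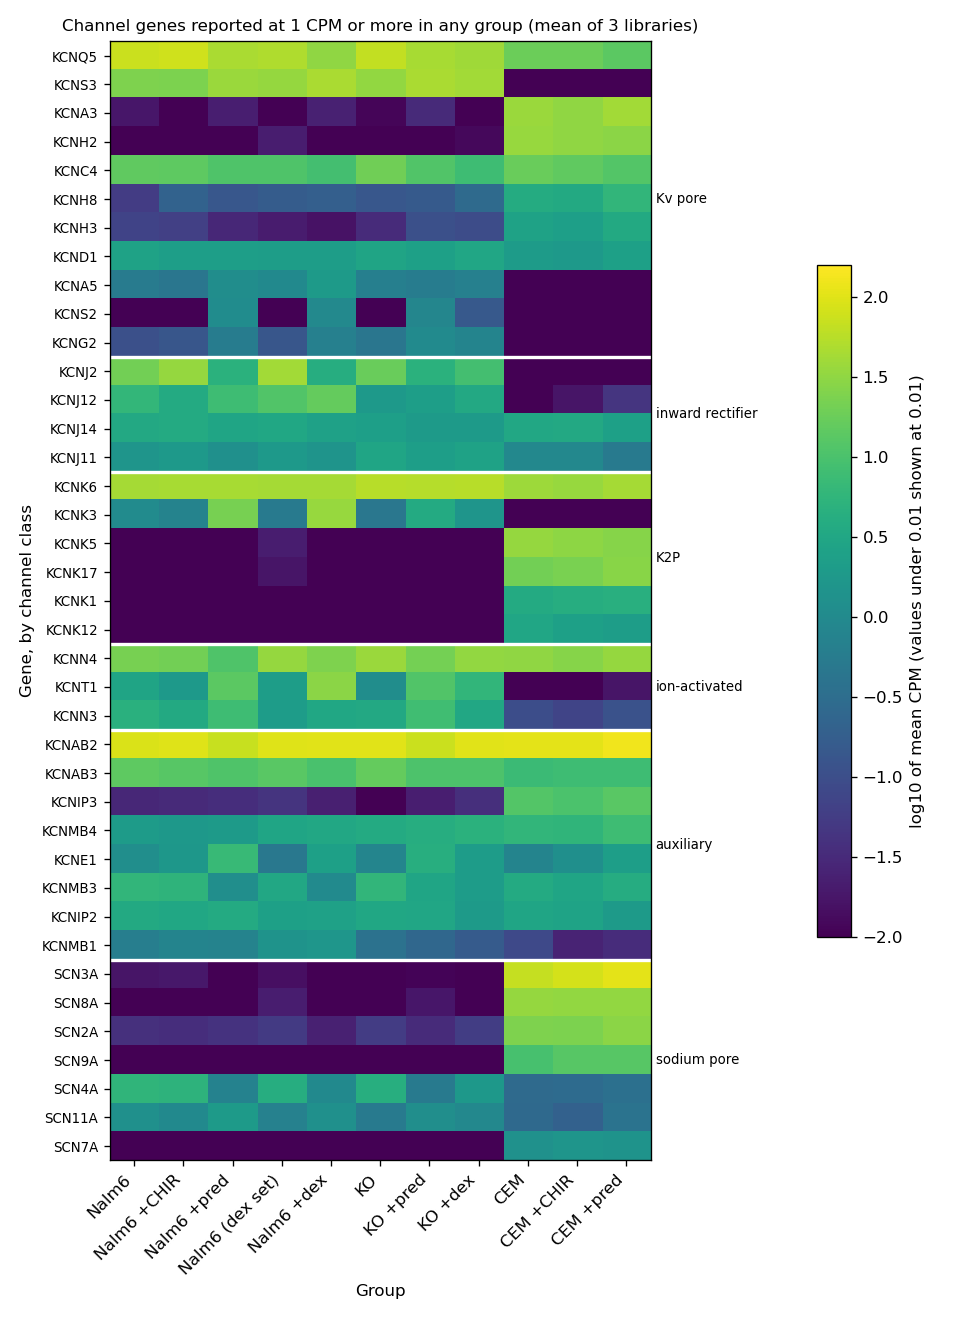
Mean level of 39 of the 42 channel genes that reached 1 CPM in any group, as the base-10 logarithm of the mean CPM of 3 libraries, with genes (rows) ordered by channel class and groups (columns) by cell line. KCNAB2, KCNK6 and KCNN4 are bright in all columns, SCN3A, KCNA3, KCNH2 and KCNK5 in the CEM columns, and KCNS3 and KCNJ2 in the Nalm6 and knockout columns; values under 0.01 CPM are drawn at 0.01.

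Per kilobase of exon, which allows genes to be compared, the highest mean level of any member was that of KCNA3, the main voltage-gated potassium channel of T cells, at 16.2 CPM per kb in prednisolone-treated CEM. KCNS3, a silent subunit that alters other voltage-gated channels, followed at 14.9 CPM per kb in dexamethasone-treated Nalm6. KCNAB2, a cytoplasmic subunit that binds voltage-gated channels, reached 13.6, KCNK17, an alkali-activated background channel, 13.1, and KCNN4, the calcium-activated channel of lymphocytes, 10.9 CPM per kb. SCN3A, a sodium channel of the developing brain, reached 10.6 CPM per kb in prednisolone-treated CEM.

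Several auxiliary genes reached 1 CPM while a pore gene that each is known to join did not. Other possible pore partners were not examined. KCNE1 is the partner of KCNQ1 in the heart, and KCNQ1 peaked at 0.0485 CPM over the 11 groups. KCNMB3 and KCNMB4 are beta subunits of the large-conductance calcium-activated channel, whose pore gene KCNMA1 peaked at 0.222 CPM. Both pore genes stayed at or under 11 counts in every library.

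Some of the line-restricted genes were neighbours on a chromosome. SCN3A, SCN2A, SCN1A, SCN9A and SCN7A stand in this order on chromosome 2 with 4 other protein-coding genes among them, and SCN3A, SCN2A, SCN9A and SCN7A reached 1 CPM in CEM only, whereas SCN1A peaked at 0.0420 CPM. KCNK5 and KCNK17 are adjacent on chromosome 6 and were both restricted to CEM, while their neighbour KCNK16 peaked at 0.0262 CPM. Adjacent genes were not always alike: KCNA3 reached 41.7 CPM in CEM, its neighbour KCNA2 0.715 CPM, and KCNA10 beside them had no read. The gene order is that of RefSeq and gives no coordinates of the counted features.

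Untreated CEM was set beside the untreated Nalm6 libraries of the dexamethasone pair to give the differences between the lines, which the titles put in separate sets, so line and set cannot be told apart. Of 39 members tested without the 3 prompting genes, 34 passed an edgeR adjusted p of 0.05, 19 higher in CEM and 15 lower; of all genes tested 77.5% passed, 40.2% higher and 37.3% lower. The sodium channel SCN3A was at 66.4, 63.3 and 70.2 CPM in the 3 untreated CEM libraries and at 0.0440, 0 and 0 CPM in the Nalm6 libraries. With 8325 reads against 2, the ratio was 3734 (95% counting interval 1033 to 30836). KCNA3 had a ratio of 4141 (743 to 163611), from 4617 reads against 1. SCN9A, a sodium channel of sensory neurons, was at least 363-fold higher in CEM, with 0 reads in the 3 Nalm6 libraries. The background channel KCNK1 was at least 141-fold and KCNK12 at least 115-fold higher.

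Further CEM genes gave a few reads in Nalm6. KCNH2, the repolarising channel of the heart, was at 34.5, 36.4 and 34.0 CPM in CEM, and KCNK5, an alkali-activated background channel, at 33.9, 34.6 and 34.5 CPM. SCN8A, a sodium channel of neurons, was at 33.7, 34.0 and 34.6 CPM. Each of these 3 genes had 3 reads in replicate 1 of the untreated dexamethasone pair (0.0660 CPM) and none in replicates 2 and 3; the source of these reads was not tested. SCN2A, another brain sodium channel, was at 24.7, 22.9 and 25.7 CPM in CEM and at 0.0660, 0.0308 and 0.0576 CPM in Nalm6.

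In the other direction, KCNS3 was at 35.0, 34.1 and 33.2 CPM in untreated Nalm6 and had no read in untreated CEM, a difference of at least 1430-fold. KCNJ12, an inward rectifier, was at 9.97, 12.5 and 11.4 CPM in Nalm6 and at 0 in untreated CEM, at least 466-fold higher in Nalm6; its reads are uncertain because a near-identical copy, KCNJ18, is not counted separately in the files. The sodium-activated channel KCNT1 was at least 91.8-fold higher in Nalm6. KCNJ2, not tested, was at 0 in all 9 CEM libraries, as was KCNK3. Genes of both lines differed less: KCNQ5, a voltage-gated channel that opens at subthreshold voltages, was lower in CEM by a log2 fold change of -1.52 ± 0.05 (SE; edgeR adjusted p = 9.13e-12). KCNN4 was lower by -0.14 ± 0.05 (edgeR adjusted p = 0.0167) but higher by 0.57 when the other untreated Nalm6 libraries were used, and KCNE1 changed direction likewise, from 0.69 ± 0.22 to -0.56. The KCNN4 call was also lost without CEM replicate 1 or 2 or Nalm6 replicate 2. KCNE1 is uncertain too, because a near-identical copy, KCNE1B, is not counted separately in the files.

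Prednisolone changed a set of potassium channel genes in Nalm6, and the largest rises were in genes with low untreated levels. Of 30 members tested, 17 passed the test, 9 higher and 8 lower, beside 54.8% of all genes tested (28.7% higher, 26.1% lower). The share of members is thus near that of all genes. The median log2 fold change of the members was 0.00 beside 0.03 for all genes. The untreated Nalm6 group used here is the one the series text ties to CHIR-99021, and the labels name no separate control for prednisolone, so drug and set cannot be told apart. Against the untreated Nalm6 group of the dexamethasone pair, a comparison added after seeing the data, 17 members again passed, 7 higher and 10 lower, beside 64.3% of all genes. Of the original 17, 13 were among them, with KCNJ12 in the opposite direction (-0.63, edgeR adjusted p = 2.04e-05). KCNS3 (-0.0078), KCNA5 (0.18), KCNC4 (-0.12) and KCNE5 (-0.58) did not pass there, at edgeR adjusted p of 0.915, 0.470, 0.249 and 0.112. The values that follow use the first untreated group.

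Ion-activated channels rose or fell by member. KCNT1, opened by intracellular sodium, was at 13.2, 14.3 and 13.7 CPM with prednisolone and at 2.21, 2.92 and 3.47 CPM without it. No treated library overlapped an untreated one, and the log2 fold change was 2.24 ± 0.11 (edgeR adjusted p = 1.98e-11). KCNN3, a small-conductance calcium-activated channel, was at 8.89, 7.59 and 7.51 CPM against 3.63, 4.82 and 5.42 CPM, a rise of 0.75 ± 0.12 (edgeR adjusted p = 3.93e-05). KCNN4 fell, from 22.2, 20.9 and 23.1 CPM to 12.3, 9.93 and 10.7 CPM, with a change of -1.06 ± 0.07 on the log2 scale (edgeR adjusted p = 1.24e-09). Thus 2 calcium- or sodium-activated genes rose and the lymphocyte channel fell in the same libraries. In bulk libraries, fewer cells that express a gene and less RNA per cell cannot be told apart.

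Among voltage-gated pore genes, the silent subunits KCNS2 and KCNG2 rose against either untreated group. KCNS2 had no read in the 3 untreated libraries and was at 0.883, 1.04 and 1.42 CPM under prednisolone, at least 65.4-fold higher (164 reads against a floor of 3 over the group). KCNG2 was at 0.577, 0.474 and 0.665 CPM against 0.0807, 0.0816 and 0.157 CPM, a change of 2.37 ± 0.35 on the log2 scale (edgeR adjusted p = 1.99e-05). KCNS3 was at 38.1, 35.5 and 36.8 CPM against 24.4, 24.4 and 24.9 CPM, a rise of 0.55 ± 0.05 (edgeR adjusted p = 2.30e-08) that did not pass against the other untreated group, which was at 35.0, 34.1 and 33.2 CPM. KCNA5, a fast-opening channel of the atrium, rose by 1.05 ± 0.21 to levels of 0.984, 1.12 and 1.36 CPM. KCNQ5 fell from 72.1, 71.7 and 72.9 CPM to 47.6, 49.6 and 43.9 CPM, a change of -0.65 ± 0.04 (edgeR adjusted p = 9.87e-10). KCNC4, a rapidly inactivating channel, fell by 0.47 on the log2 scale. KCND1, a transient potassium channel, did not pass, with a log2 fold change of -0.19 ± 0.15.

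Auxiliary subunits showed both the strongest tested fall and a strong rise. KCNMB3 was at 6.06, 5.73 and 5.47 CPM untreated and at 1.56, 1.08 and 0.990 CPM with prednisolone, a change of -2.34 ± 0.14 on the log2 scale (edgeR adjusted p = 2.43e-10). KCNE1 was at 1.16, 1.33 and 1.11 CPM and at 7.09, 7.71 and 5.34 CPM, a change of 2.45 ± 0.15 (edgeR adjusted p = 2.50e-10). The treated and untreated libraries did not overlap for either gene. The cytoplasmic beta subunits KCNAB2 and KCNAB3 fell by 0.41 and 0.37 on the log2 scale, and KCNE5, an inhibitory relative of KCNE1 that stayed below 1 CPM, fell by 0.88. KCNIP2, which joins transient potassium channels, and KCNMB4 did not pass, at -0.01 ± 0.13 and -0.15 ± 0.14.

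Of the inward rectifiers, KCNJ12 was higher by 0.35 ± 0.08 (edgeR adjusted p = 0.00145), at 7.94, 7.34 and 8.33 CPM against 6.18, 5.96 and 5.97 CPM, but lower than the 9.97, 12.5 and 11.4 CPM of the other untreated group, so its direction turned with the control. Meanwhile KCNJ14 and KCNJ11, the latter the pore of ATP-sensitive potassium channels, did not pass, at -0.24 ± 0.11 and -0.35 ± 0.17. KCNJ2, the inward rectifier that sets the resting potential of heart and skeletal muscle, was at 22.2, 18.4 and 19.7 CPM untreated and at 4.58, 4.80 and 5.17 CPM with prednisolone, a log2 fold change of -2.07 ± 0.08 (SE, no test). Among background channels, KCNK3, an acid-sensitive channel that sets resting potential, was at 1.07, 1.08 and 1.03 CPM untreated and at 18.2, 22.5 and 24.4 CPM under prednisolone, a difference of 4.34 ± 0.12 (SE, no test). KCNK6, another background channel, was at 41.0, 43.5 and 42.4 CPM against 42.2, 47.4 and 46.6 CPM and did not pass.

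Of the sodium channels, SCN4A, the channel of skeletal muscle, was at 6.30, 5.26 and 5.52 CPM untreated and at 0.679, 0.892 and 0.580 CPM under prednisolone, a difference of -3.02 ± 0.15 on the log2 scale (SE, no test). SCN11A, a sodium channel of pain-sensing neurons, rose from 1.13, 1.47 and 1.20 CPM to 2.44, 1.95 and 1.54 CPM (log2 fold change 0.58 ± 0.18, edgeR adjusted p = 0.0120). Leaving out prednisolone replicate 1 ended the SCN11A call (0.42, edgeR adjusted p = 0.066) as did leaving out untreated replicate 1 (0.50, edgeR adjusted p = 0.057).

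**Figure D2:**
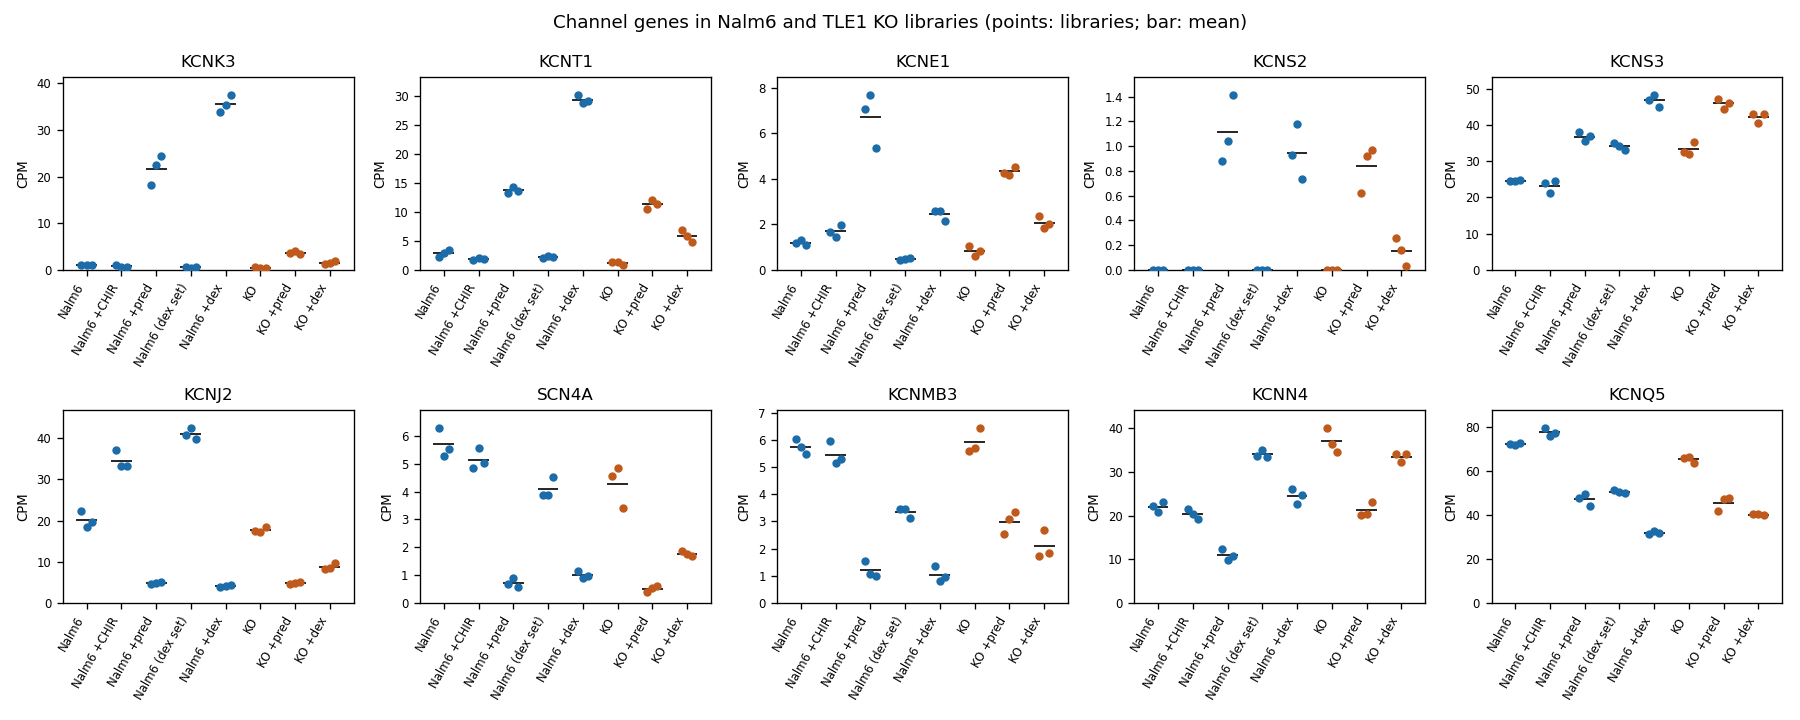
CPM of 10 channel genes in each library of the Nalm6 groups (blue) and the TLE1 knockout groups (orange), with the group mean as a bar and each vertical axis starting at 0. KCNK3 reaches 33.9 to 37.5 CPM and KCNT1 28.8 to 30.2 CPM under dexamethasone in Nalm6, and KCNJ2, SCN4A and KCNMB3 are low in every glucocorticoid-treated Nalm6 library.

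Dexamethasone was compared with the untreated libraries of its own titled pair. Of 28 members tested, 17 passed, 10 higher and 7 lower, beside 60.5% of all genes tested (30.2% in each direction); the median log2 fold change was 0.00 beside 0.02 for all genes. The dose, 100 nM, differs from the 5 µM of prednisolone, and the responses are given side by side without a comparison of size. The same 9 genes were called higher under both drugs (KCNA5, KCNE1, KCNG2, KCNJ12, KCNN3, KCNS2, KCNS3, KCNT1 and SCN11A) and the same 6 lower (among them KCNAB3, KCNC4, KCNMB3, KCNN4 and KCNQ5), and no gene was called in opposite directions. The share of all genes called in the same direction under both drugs was not computed, and 54.8% and 60.5% were called under each. The overlap is therefore not a result about the channel genes. These counts use different untreated groups for each drug. Against the untreated group of the dexamethasone pair, KCNJ12 was called lower with prednisolone, and KCNA5, KCNS3 and KCNC4 were not called.

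KCNT1 was at 30.2, 28.8 and 29.0 CPM under dexamethasone against 2.11, 2.31 and 2.19 CPM, a change of 3.70 ± 0.07 on the log2 scale (edgeR adjusted p = 3.11e-14). KCNE1 was at 2.59, 2.58 and 2.16 CPM against 0.440, 0.462 and 0.519 CPM, a change of 2.33 ± 0.18 (edgeR adjusted p = 6.55e-08). KCNMB3 was at 1.34, 0.812 and 0.949 CPM against 3.46, 3.48 and 3.11 CPM, a change of -1.72 ± 0.17 (edgeR adjusted p = 5.19e-07). None of these 3 genes had overlapping groups. KCNS2 was again at 0 without the drug and at 0.925, 1.18 and 0.736 CPM with it, at least 35.5-fold higher.

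KCNQ5 fell by 0.70, KCNN4 by 0.51 and KCNAB3 by 0.42 on the log2 scale. KCNAB2, called lower under prednisolone, was at 97.8, 104 and 101 CPM under dexamethasone against 89.0, 103 and 102 CPM and did not pass. KCNJ14 was called lower by 0.34 (edgeR adjusted p = 0.0333), a call lost without dexamethasone replicate 2 or 3, without untreated replicate 1 or 3, and with DESeq2, at adjusted p between 0.054 and 0.11. Among the prompting genes, KCNJ2 was at 3.86, 4.16 and 4.46 CPM against 40.7, 42.6 and 39.9 CPM. KCNK3 was at 33.9, 35.3 and 37.5 CPM against 0.550, 0.431 and 0.605 CPM. SCN4A was at 1.13, 0.910 and 0.949 CPM against 3.87, 3.88 and 4.52 CPM. Their log2 fold changes were -3.34 ± 0.07, 6.02 ± 0.11 and -2.06 ± 0.14 (SE, no test).

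**Figure D3:**
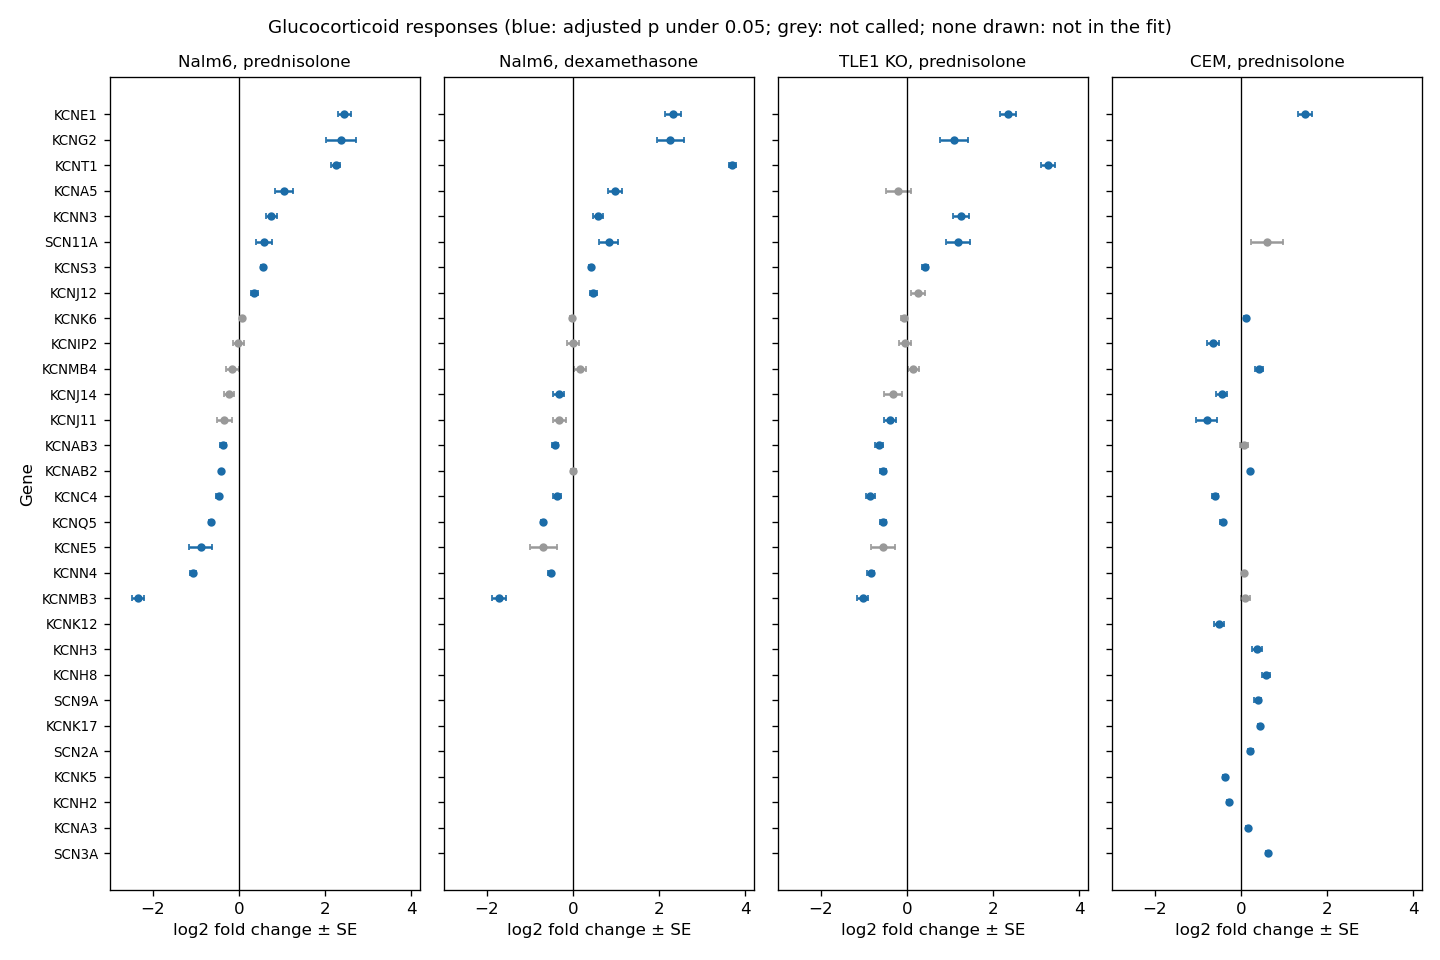
Log2 fold change with its SE (horizontal axis) of 30 of the 33 channel genes called in at least 1 of 4 glucocorticoid comparisons, with genes on the vertical axis; blue marks an edgeR adjusted p under 0.05, grey a gene not called, and a missing point a gene outside the fit. KCNE1 lies right of 0 in all 4 panels and KCNC4 and KCNQ5 left of 0; of the 3 not drawn, KCNS2 is left out because its untreated groups held no read.

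Both untreated Nalm6 groups were also compared with each other. Of 25 members tested, 14 passed, 7 higher in the dexamethasone pair and 7 lower, beside 50.2% of all genes (25.8% higher, 24.4% lower). KCNE1 was lower there, at 0.440, 0.462 and 0.519 CPM against 1.16, 1.33 and 1.11 CPM (log2 fold change -1.28 ± 0.19, edgeR adjusted p = 1.93e-04). KCNMB1, a smooth-muscle beta subunit of the large-conductance channel, was higher, at 1.14, 1.38 and 1.81 CPM against 0.630, 0.714 and 0.522 CPM (1.27 ± 0.21, edgeR adjusted p = 3.77e-04). KCNN3 was lower by 1.07 on the log2 scale, to 2.11, 2.31 and 1.87 CPM. KCNJ2, not tested, was at 40.7, 42.6 and 39.9 CPM in the dexamethasone pair and at 22.2, 18.4 and 19.7 CPM in the other group. Responses in the other groups were therefore read against their own titled controls where these exist. SCN11A was lower by 0.76, a call lost without replicate 3 of the dexamethasone pair (0.55 lower, edgeR adjusted p = 0.051).

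The TLE1 knockout was compared with Nalm6 in untreated cells, using the untreated Nalm6 group that is not part of the dexamethasone pair. The other untreated Nalm6 group was not fitted against the knockout. Of 28 members tested, 14 passed, 11 higher in the knockout and 3 lower, beside 27.1% of all genes (15.3% higher, 11.8% lower), and the median log2 fold change was 0.19 beside -0.01 for all genes. KCNN4 and KCNMB4 were among those called higher against this group. KCNN4 was at 40.1, 36.5 and 34.5 CPM in the knockout against 22.2, 20.9 and 23.1 CPM, a change of 0.77 ± 0.07 on the log2 scale (edgeR adjusted p = 5.48e-05). KCNMB4 was at 3.82, 3.33 and 3.95 CPM against 2.03, 2.00 and 2.11 CPM (0.88 ± 0.11, edgeR adjusted p = 4.89e-04). KCNJ11 rose by 0.93 ± 0.14. KCNS3, KCNK6 and KCNC4 rose by 0.46, 0.41 and 0.44. In the untreated Nalm6 group of the dexamethasone pair, KCNN4, KCNMB4 and KCNS3 had means of 34.1, 2.92 and 34.1 CPM. Their knockout means were 37.1, 3.70 and 33.3 CPM, and the libraries overlapped. For these genes the rise thus rests on the untreated Nalm6 group chosen. KCNJ11, KCNK6 and KCNC4 were lower in every library of that other group than in any untreated knockout library.

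The 3 genes lower in the untreated knockout were KCNJ12, KCNT1 and SCN11A. KCNJ12 was at 2.02, 1.77 and 1.83 CPM against 6.18, 5.96 and 5.97 CPM, a change of -1.67 ± 0.10 (edgeR adjusted p = 5.53e-06). KCNT1 fell by 1.31 and SCN11A by 1.28 on the log2 scale, without overlap of the groups. In the untreated Nalm6 group of the dexamethasone pair, SCN11A was at 0.881, 0.738 and 0.461 CPM. These levels overlapped those of the untreated knockout, at 0.625, 0.367 and 0.546 CPM. KCNJ12 and KCNT1 did not overlap the knockout in that group either. The calls of KCNG2, KCNN1, a small-conductance calcium-activated channel, KCNJ16, an inward rectifier of kidney and brain, and KCNAB2 were the least firm. KCNG2 rose by 2.08 ± 0.36 but by 0.49 (edgeR adjusted p = 0.081) in counts that ignore strand. KCNN1 had 41 reads over the knockout libraries and 20 over those of Nalm6, and its call was lost without untreated Nalm6 replicate 1 or 2 or knockout replicate 1. The KCNJ16 call was lost without any untreated Nalm6 replicate or without knockout replicate 2, and that of KCNAB2 without any Nalm6 replicate or without knockout replicate 1 or 2. KCNK3, KCNJ2 and SCN4A had log2 differences of -1.16 ± 0.23, -0.17 ± 0.08 and -0.40 ± 0.14 (SE, no test).

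In the knockout, prednisolone moved most of the genes it moved in Nalm6, at the same dose. Of 27 members tested, 15 passed, 7 higher and 8 lower, beside 41.7% of all genes tested (19.8% higher, 21.9% lower), with a median log2 fold change of -0.20 beside 0.00. All 7 higher genes (KCNE1, KCNG2, KCNN3, KCNS2, KCNS3, KCNT1 and SCN11A) were also called higher under both glucocorticoids in Nalm6, and 6 of the 8 lower genes (among them KCNAB3, KCNC4, KCNMB3, KCNN4 and KCNQ5) were called lower there. KCNAB2 and KCNJ11 made up the rest. The share of all genes with such shared calls was not computed, so the overlap is not a result about the channel genes. KCNT1 was at 10.5, 12.1 and 11.3 CPM against 1.29, 1.28 and 0.835 CPM (log2 fold change 3.27 ± 0.15, edgeR adjusted p = 1.43e-07). KCNE1 was at 4.28, 4.19 and 4.52 CPM against 1.04, 0.612 and 0.835 CPM (2.35 ± 0.18, edgeR adjusted p = 3.88e-06). KCNS2 went from 0 reads to 0.623, 0.923 and 0.970 CPM, at least 25.4-fold higher.

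Among the genes that fell in the knockout, KCNMB3 went from 5.59, 5.72 and 6.45 CPM to 2.55, 3.10 and 3.35 CPM, a change of -1.03 ± 0.14 (edgeR adjusted p = 1.63e-04). KCNN4 fell by 0.85 and KCNC4 by 0.85 on the log2 scale. KCNA5 and KCNJ12, called higher in Nalm6, did not pass here, at -0.20 ± 0.30 and 0.25 ± 0.17. The KCNG2 call was lost without prednisolone replicate 2 or 3 and in counts that ignore strand (0.28, edgeR adjusted p = 0.43), and KCNS2 in those counts had a change of 0.97 on the log2 scale (edgeR adjusted p = 0.081). The KCNJ11 call (edgeR adjusted p = 0.0397) was lost without any 1 of the 6 libraries. KCNJ2, not tested, was at 4.63, 4.85 and 5.12 CPM against 17.4, 17.2 and 18.4 CPM. SCN4A was at 0.406, 0.528 and 0.602 CPM against 4.55, 4.83 and 3.40 CPM, again without a test. KCNK3, also not tested, was at 3.60, 4.02 and 3.48 CPM against 0.660, 0.336 and 0.417 CPM.

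An interaction term for the prednisolone response, knockout minus Nalm6, called 2 of 31 members, both higher, beside 3.48% of all genes (1.10% higher, 2.38% lower). With the other untreated Nalm6 group it called 9 of 29, beside 24.6% of all genes, and KCNT1 (0.76, edgeR adjusted p = 0.00613) and KCNMB3 (0.62, edgeR adjusted p = 0.0482) were among them. KCNT1 responded by 1.06 ± 0.22 more in the knockout (log2, SE; edgeR adjusted p = 0.0119), from untreated levels of 0.835 to 1.29 CPM in the knockout and 2.21 to 3.47 CPM in Nalm6 to treated levels of 10.5 to 12.1 and 13.2 to 14.3 CPM. KCNMB3 fell by less in the knockout, with a difference of 1.33 ± 0.20 (edgeR adjusted p = 0.00112). In counts that ignore strand the KCNMB3 difference was 0.61 and did not pass (edgeR adjusted p = 0.099). KCNA5 had a difference of -1.22 ± 0.36 that did not pass (edgeR adjusted p = 0.0723). For KCNK3, which was not tested, the difference was -1.37 ± 0.31, with treated levels of 3.48 to 4.02 CPM in the knockout and 18.2 to 24.4 CPM in Nalm6.

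No untreated knockout group is titled as part of the dexamethasone pair, so the dexamethasone-treated knockout was compared with the untreated knockout group, and drug and set cannot be told apart. Of 26 members tested, 15 passed, 8 higher and 7 lower, beside 52.3% of all genes (26.0% higher, 26.3% lower). With the difference between both untreated Nalm6 groups subtracted, 12 passed, 4 higher and 8 lower, 7 of them shared with the 15. In that fit 6952 of all 17375 genes tested passed, 3215 higher and 3737 lower. KCNT1 was at 6.79, 5.89 and 4.78 CPM (log2 fold change 2.37 ± 0.19; 2.68 with the set difference subtracted) and KCNE1 at 2.38, 1.86 and 2.01 CPM (1.35 ± 0.21; 2.63). SCN11A kept a rise (0.88; 1.65), and KCNMB3 (-1.49; -0.78), KCNC4 (-1.33; -0.96), KCNQ5 (-0.69; -0.24) and KCNAB3 (-0.59; -0.53) kept a fall under both. KCNJ12, KCNMB4 and KCNS3 were called higher without the subtraction, at 0.88, 0.37 and 0.35, and had values of -0.08, -0.20 and -0.18 with it, none of which passed. KCNG2, KCNIP2 and KCNJ10, an inward rectifier of glia, also lost their call on subtraction. The calls of SCN11A, KCNG2 and KCNMB4 were each lost without dexamethasone replicate 3. Untreated replicate 2 likewise decided SCN11A and KCNMB4, and untreated replicate 3 KCNG2. Dexamethasone replicate 1 decided KCNMB4. KCNS2 was at 0.260, 0.158 and 0.0341 CPM, under the level that entered the fit. KCNK3 was at 1.34, 1.54 and 1.84 CPM, KCNJ2 at 8.24, 8.38 and 9.73 CPM and SCN4A at 1.86, 1.74 and 1.67 CPM.

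In CEM, given prednisolone at 10 µM, the called genes included sodium channels. Of 32 members tested, 19 passed, 11 higher and 8 lower, beside 45.1% of all genes (22.3% higher, 22.8% lower), with a median log2 fold change of 0.13 beside 0.02 for all genes. KCNE1 had the largest change among the members called. It was at 2.12, 2.26 and 2.39 CPM against 0.758, 0.746 and 0.857 CPM, a change of 1.49 ± 0.16 on the log2 scale (edgeR adjusted p = 6.72e-07), and its groups did not overlap.

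Sodium channel pore genes rose in part. SCN3A went from 66.4, 63.3 and 70.2 CPM to 105, 105 and 104 CPM, a change of 0.62 ± 0.04 (edgeR adjusted p = 1.89e-10). SCN9A rose by 0.38 ± 0.08 and SCN2A by 0.22 ± 0.06, the latter call lost without prednisolone replicate 3 (0.16, edgeR adjusted p = 0.052). SCN8A and SCN7A, an atypical sodium channel linked to salt sensing, did not pass, at -0.07 ± 0.04 and 0.06 ± 0.16. So 3 of the 4 neighbouring sodium channel genes of chromosome 2 that CEM expressed were called higher.

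Potassium pore genes of CEM moved in both directions. KCNA3 was at 40.7, 40.7 and 43.7 CPM against 36.9, 37.2 and 36.1 CPM, a small rise of 0.15 ± 0.04 (edgeR adjusted p = 0.00463). The ether-a-go-go-like channels KCNH8 and KCNH3 rose by 0.58 ± 0.10 and 0.37 ± 0.11, while KCNH2 of the same family fell by 0.28. KCNC4 fell by 0.61 and KCNQ5 by 0.42. Of the background channels, KCNK17 went from 21.1, 20.7 and 19.4 CPM to 27.7, 28.3 and 29.3 CPM (0.44 ± 0.05, edgeR adjusted p = 7.26e-07). Its neighbour KCNK5 went the other way, from 33.9, 34.6 and 34.5 CPM to 26.6, 25.8 and 28.4 CPM (-0.38 ± 0.04, edgeR adjusted p = 1.31e-06). KCNK12 fell by 0.51, and KCNK6 rose by 0.12, a call lost without prednisolone replicate 1 or 2 or untreated replicate 1 or 3. KCNN4 was at 34.4, 33.1 and 35.4 CPM against 31.4, 31.6 and 32.5 CPM and did not pass.

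Among the inward rectifiers of CEM, KCNJ11 fell by 0.80, a call lost without prednisolone replicate 3 (-0.65, edgeR adjusted p = 0.057), and KCNJ14 by 0.45. Of the auxiliary subunits, KCNAB2 rose by 0.22 and KCNMB4 by 0.42, and KCNIP2 fell by 0.65. KCNIP3, a calcium-binding partner of transient potassium channels that reached 1 CPM in CEM only, was at 13.2, 13.5 and 13.4 CPM against 12.0, 11.1 and 12.4 CPM and did not pass (edgeR adjusted p = 0.0601). KCNMB3, which fell in Nalm6, was at 3.96, 3.82 and 4.05 CPM against 3.62, 3.22 and 4.05 CPM and did not pass. SCN4A, not tested, lay between 0.313 and 0.402 CPM with prednisolone and between 0.173 and 0.351 CPM without it, and the groups overlapped.

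**Figure D4:**
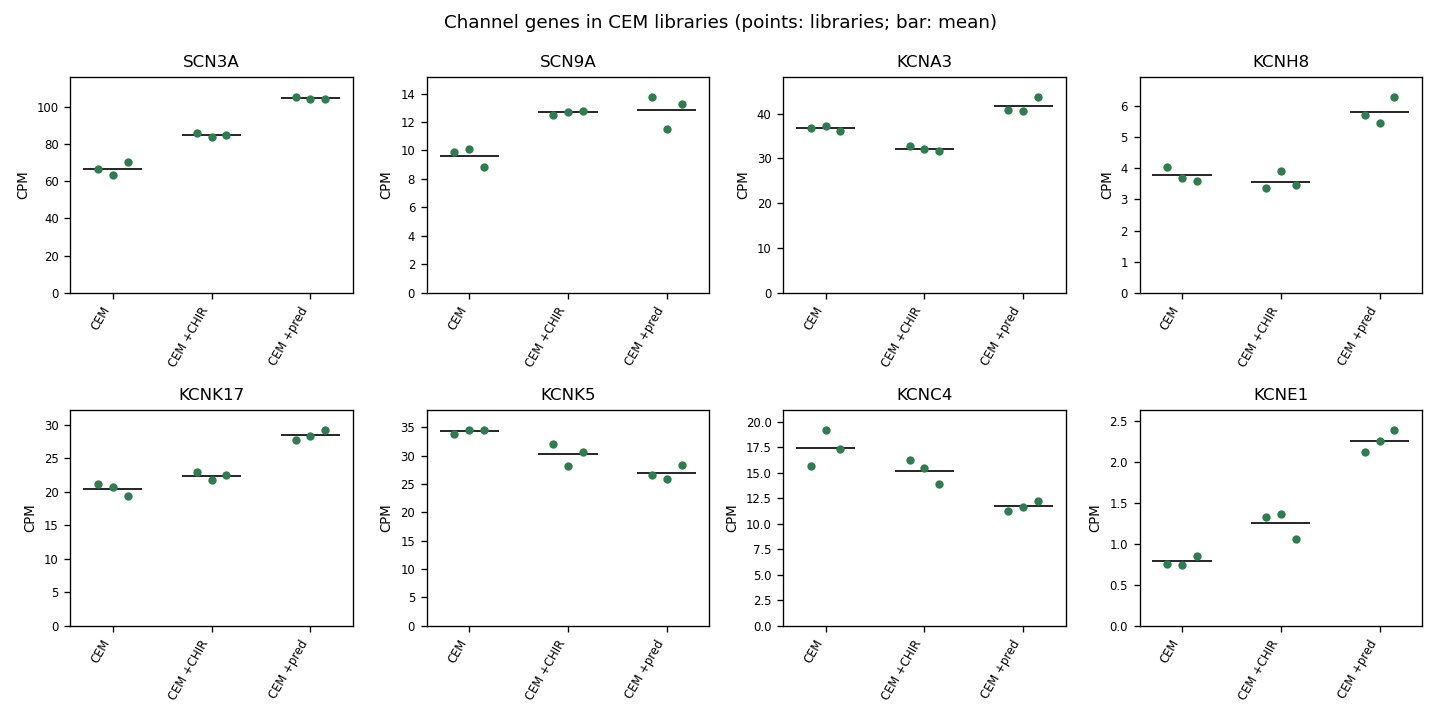
CPM of 8 channel genes in each CEM library, untreated, with CHIR-99021 at 2 µM or with prednisolone at 10 µM; points are libraries, bars are means and each vertical axis starts at 0. SCN3A lies at 63.3 to 70.2 CPM untreated and at 104 to 105 CPM with prednisolone, and KCNK17 and KCNK5 move in opposite directions.

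The same term for CEM minus Nalm6 called 9 of 46 members, 7 higher and 2 lower, beside 26.9% of all genes (14.7% higher, 12.2% lower). The doses were 10 and 5 µM, so dose and line cannot be told apart. KCNMB3 had a difference of 2.46, KCNN4 of 1.15 and KCNAB2 of 0.64, each called lower with the drug in Nalm6 and not called lower in CEM. KCNE1 rose by less in CEM, with a difference of -0.94. With the other untreated Nalm6 group, 12 of 44 were called, 8 of them shared, beside 39.8% of all genes. The difference of KCNQ5, 0.24, became -0.20 there, and that of KCNE5 was not called. Members with almost no reads in one of the lines, such as SCN3A or KCNT1, have no usable difference.

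CHIR-99021 changed few members in either line. In Nalm6 at 0.5 µM, 1 of 27 tested members passed, beside 7.88% of all genes (3.16% higher, 4.72% lower): KCNJ12 fell from 6.18, 5.96 and 5.97 CPM to 4.07, 3.52 and 3.39 CPM (log2 fold change -0.73 ± 0.09, edgeR adjusted p = 0.00106). The count was 4 without CHIR-99021 replicate 3 and 3 without untreated replicate 1. Of all genes, 2708 of 18303 and 779 of 18389 passed in these fits. KCNT1, at 1.64, 2.00 and 1.95 CPM, did not pass (log2 fold change -0.61 ± 0.17, edgeR adjusted p = 0.0561). KCNJ2, not tested, was at 37.0, 33.2 and 33.2 CPM with the drug against 22.2, 18.4 and 19.7 CPM, a difference of 0.77 ± 0.07. KCNK3 and SCN4A differed by -0.49 ± 0.19 and -0.15 ± 0.10.

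In CEM at 2 µM, 5 of 33 members passed, 3 higher and 2 lower, beside 10.8% of all genes (5.41% higher, 5.43% lower). SCN3A rose to 85.9, 83.7 and 84.8 CPM (0.37 ± 0.04, edgeR adjusted p = 2.09e-04) and SCN9A to 12.5, 12.7 and 12.8 CPM (0.41 ± 0.07, edgeR adjusted p = 0.00304). KCNE1 rose by 0.71, and KCNA3 and KCNN4 fell by 0.17 and 0.21. The count was 3 without CHIR-99021 replicate 2, untreated replicate 1 or untreated replicate 2, and 2 without untreated replicate 3. Of all genes, 1001 of 17631, 1136 of 17478, 1104 of 17524 and 1064 of 17600 passed in these fits, in the same order. The calls of SCN3A and SCN9A held in each of these fits, whereas KCNE1 lost its call without any of 5 libraries, KCNA3 without any of 4 and KCNN4 without untreated replicate 3. SCN3A and SCN9A were thus called higher with both drugs in CEM, whose treated groups share the same untreated libraries.

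A list of 47 partner genes covered store-operated calcium entry, sodium pumps, chloride co-transporters and kinases or ligases known to act on ion channels; genes called with a change of at least 1 are named, up to the 4 with the largest change in a comparison. SGK1, a glucocorticoid-responsive kinase that raises the surface level of several channels, was at 16.9 ± 1.08 CPM (SD, n = 3) in prednisolone-treated Nalm6 against 2.24 ± 0.03 CPM untreated. Its log2 fold change was 2.87 (edgeR adjusted p = 1.21e-14) with prednisolone in Nalm6, 3.27 with dexamethasone in Nalm6 and 1.22 with prednisolone in CEM. The prednisolone response of SGK1 differed by -1.87 in the knockout minus Nalm6 on the log2 scale (edgeR adjusted p = 7.01e-07). STIM1, the calcium sensor that opens store-operated channels, rose by 1.15 with prednisolone and by 1.54 with dexamethasone in Nalm6. Its relative STIM2 fell by 1.13 and the pore gene ORAI2 rose by 1.13 with dexamethasone in Nalm6.

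Over that list, 24 of 31 tested genes passed with prednisolone in Nalm6 (9 higher, 15 lower; 54.8% of all genes) and 17 of 30 with dexamethasone in Nalm6 (8 higher, 9 lower; 60.5%). In the knockout, 15 of 31 passed with prednisolone (7 higher, 8 lower; 41.7% of all genes) and 18 of 30 with dexamethasone (8 higher, 10 lower; 52.3%). In CEM, 16 of 33 passed with prednisolone (7 higher, 9 lower; 45.1% of all genes). CHIR-99021 gave 4 of 31 in Nalm6 (7.88% of all genes) and 7 of 32 in CEM (10.8%). Several of these shares lie near those of all genes. In CEM, LRRC38, a gamma subunit of the large-conductance calcium-activated channel, was at 26.3 ± 1.86 CPM with prednisolone against 10.0 ± 0.31 CPM without (SD, n = 3), a log2 fold change of 1.36. In the dexamethasone-treated knockout, ORAI3, another store-operated pore gene, rose by 1.21 and SLC12A7, a potassium-chloride co-transporter, fell by 1.99. SLC12A7 and KCNRG, a regulator of voltage-gated channel assembly, changed by -1.53 and 1.05 with prednisolone in the knockout. Both stayed below 1 CPM there. SLC12A7 had means of 0.701 CPM untreated, 0.243 CPM with prednisolone and 0.172 CPM with dexamethasone. KCNRG was at 0.268 CPM untreated and 0.578 CPM with prednisolone. Without treatment SLC12A7 and TPCN1, an endolysosomal channel, were higher in the knockout by 1.29 and 1.06, with SLC12A7 at a mean of 0.285 CPM in Nalm6. Between untreated CEM and Nalm6, 17 partner genes passed with a difference of at least 1, beside 77.5% of all genes called at any size. SLC12A7 was higher in CEM by 8.35 on the log2 scale. LRRC38 had 1256 reads in CEM against 1 in Nalm6, a ratio of 1127 (95% counting interval 202 to 44534). FXYD2, a regulator of the sodium pump, had 89 reads against 1, a ratio of 79.8 (14.0 to 3188). LRRC26, another gamma subunit of the large-conductance channel, had 77 reads in Nalm6 against 1 in CEM, a ratio of 85.8 (15.0 to 3434). The prednisolone response of SGK1 differed by -1.64 in CEM minus Nalm6 (edgeR adjusted p = 2.20e-10), at the doses named above.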

How the data were processed

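Bulk RNA-seq libraries of cell lines were analysed as the per-gene read counts that the authors deposited, in a layout with an unstranded and 2 stranded columns. Per the submitters' processing notes, hg19, Bowtie2 and DESeq2 were used; their roles, versions and the annotation are not given in the sources used here. Column 4 was used, because it held 12.3 to 15.3 times the reads of column 3; reads outside genes, 36.0% to 49.2%, were left out. The 62446 gene IDs were matched to symbols (58652 matched). CPM was computed from gene totals, and exon lengths were the merged exons of GENCODE on GRCh38.

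Each comparison was fitted with edgeR 4.0.16 (R 4.3.3; TMM factors, filterByExpr, quasi-likelihood test) on the libraries of its groups, with Benjamini-Hochberg adjustment over all genes in the fit. The test was checked on simulated counts. Alternatives were RLE factors, DESeq2 1.42.0, other count filters, a replicate block, column 2, the other untreated Nalm6 group (for prednisolone added after seeing the data) and each library left out. The text names every member at 1 CPM or more in any group, the 3 prompting genes, the members next to that threshold, other members called, and partner genes called with a log2 fold change of at least 1 in absolute value, up to 4 a comparison. Some members that the rule names are not reported here, though the counts include them. The members and lists were chosen with earlier results of these data known. Replicate numbers were not used to pair the libraries in the main fits.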

Additional observations from a re-analysis of the deposited data

Results flagged for a closer look

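In 11 cases the response to prednisolone differed between cell groups by the interaction term of edgeR, on the log2 scale. For the TLE1 knockout minus Nalm6, at the same dose, these were KCNT1, a sodium-activated channel, with 1.06 (adjusted p = 0.0119), and KCNMB3, a beta subunit of the large-conductance channel, with 1.33 (adjusted p = 0.00112).

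For CEM minus Nalm6, at 10 against 5 µM, the differences were 2.46 for KCNMB3, 1.44 for KCNE5, 1.15 for KCNN4, 0.64 for KCNAB2, 0.59 for KCNMB4, 0.45 for KCNAB3, 0.24 for KCNQ5, -0.63 for KCNIP2 and -0.94 for KCNE1. The edgeR adjusted p ranged from 8.58e-11 for KCNMB3 to 0.0458 for KCNE5. KCNE5 had 17 reads in untreated and 24 in prednisolone-treated CEM, and 110 and 51 in Nalm6, each summed over the 3 libraries of the group. Its call was lost without any of 8 of the 12 libraries, and that of KCNIP2 without any of 5. For KCNE5 these were prednisolone replicates 2 and 3 and untreated replicates 1 and 2 of CEM, and prednisolone replicates 1 and 3 and untreated replicates 2 and 3 of Nalm6. For KCNIP2 they were prednisolone replicates 2 and 3 and untreated replicate 1 of CEM, and prednisolone replicate 2 and untreated replicate 1 of Nalm6. With the untreated Nalm6 group of the dexamethasone pair as the control, the difference of KCNQ5 became -0.20 and KCNE5 was not called (1.13, edgeR adjusted p = 0.115). Line and dose cannot be told apart in these 9 differences.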

How the results depend on the processing

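Over 12 comparisons, 162 calls of single members were refitted under the alternatives of their comparison. In all the fits that the gene entered, 123 kept their direction and passed. Another 39 lost the call or changed direction in at least 1, and 8 changed direction in at least 1. A gene that the count filter of an alternative removed was not refitted there and was not counted as lost. With the set difference subtracted, the dexamethasone response of the knockout became -0.076 for KCNJ12, -0.20 for KCNMB4 and -0.18 for KCNS3. Against the other untreated Nalm6 group, CEM differed by -0.56 for KCNE1 and 0.57 for KCNN4. With that group as the control of prednisolone in Nalm6, a choice made after seeing the data, KCNJ12 became -0.63 and KCNS3 -0.0078. KCNQ5 became -0.20 for CEM minus Nalm6, and 9 members in place of 2 were called for the knockout minus Nalm6. In that last fit 4345 of all 17665 genes passed, in place of 624 of 17952. For CHIR-99021 in Nalm6, where 1 member was called, DESeq2 called 2, no filter on low counts 5, and column 2 gave 2. Of all genes, 1606 of 18082, 2320 of 32763 and 1266 of 22239 passed in these 3 fits. Leaving out a library gave 1 to 4 (4 without CHIR-99021 replicate 3, 3 without untreated replicate 1), beside 409 of 18362 to 2708 of 18303 genes. For CHIR-99021 in CEM, where 5 were called, leaving out a library gave 2 to 6 (2 without untreated replicate 3, and 3 without CHIR-99021 replicate 2, untreated replicate 1 or untreated replicate 2). Of all genes, 1001 of 17631 to 1948 of 17597 passed in the fits that left out a library. At least 10 counts in every library left 10 calls between CEM and Nalm6, with 15 in place of 39 members in the fit, beside 10377 of all 13805 genes. Column 2 gave 27 calls between both untreated Nalm6 groups and 1 for the knockout minus Nalm6, beside 10746 of 21165 and 487 of 21913 of all genes. The cause of the other changes was not tested.

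The same replicate numbers occur in all groups, and no comparison had every correlation of same-numbered libraries over 0.1. In some pairs of groups the same-numbered library was still the best match. Of 6 best matches, 5 were same-numbered for untreated and prednisolone-treated Nalm6, and 5 for both untreated Nalm6 groups. All 6 were for prednisolone-treated knockout and Nalm6. Untreated and dexamethasone-treated Nalm6 had 0. Pairing by replicate number is therefore not settled. With the replicate number as a block, 2 members were called for CHIR-99021 in Nalm6 and 17 for prednisolone and for dexamethasone in Nalm6. Of all genes, 925 of 18082, 10581 of 18658 and 10123 of 17217 passed in these fits. No count of members in the other comparisons moved by over 1.5 times.

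The count at 1 CPM or more was 47 at 0.5 CPM, 35 at 2 CPM and 56 in column 2. Depth limits statements on the 49 members below 0.1 CPM, close to the floor of a single library.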
